A study of Homo sapiens with 6 samples.

Results

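Cholesterol and fatty acid synthesis in MDA-MB-231 and HMLER breast cells was followed through 28 genes, chosen by symbol and split into 20 genes of the sterol pathway and 8 of the fatty acid pathway, out of 23617 symbols in the MDA-MB-231 table. The sterol genes make or regulate cholesterol, and the fatty acid genes turn citrate into long-chain saturated and unsaturated fatty acids. All 28 reached 1 FPKM, a fragment count scaled for transcript length and library size, in the untreated or the DAC library of MDA-MB-231, as did 12525 symbols in all.

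RNA-seq was carried out on 6 libraries of cells left untreated or given DAC (decitabine, a cytidine analogue that is built into DNA and traps DNA methyltransferases) at 10 µM for 72 h. MDA-MB-231 is a mesenchymal-like breast cancer line without oestrogen receptor, and it had 1 untreated and 1 DAC library. HMLER is a human mammary epithelial line immortalised and transformed by introduced genes, and it had 2 untreated and 2 DAC libraries, which were deposited as 1 merged value per condition. One label gave the untreated MDA-MB-231 library a different line number, and its title was followed. The RNA sent for sequencing was pooled from several independent extractions. No spread between samples could be computed, since MDA-MB-231 had 1 library per condition and the values of the HMLER libraries were merged. The groups differed in nothing else that the labels give.

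The MDA-MB-231 libraries were close in depth. Low values were whole multiples of what 1 fragment is worth, 0.0233 FPKM per fragment in the untreated library and 0.0235 in the DAC library for a transcript with 1 kb of usable length, so 1 fragment counted almost the same in both. The summed FPKM was nevertheless 589238 untreated and 480455 after DAC, a ratio of 0.815, and the median ratio of genes at 1 FPKM or more in both libraries was 0.912. Among defining markers of MDA-MB-231, VIM was at 3066 FPKM untreated and 1134 after DAC, AXL at 400.3 and 126.7, and ZEB1 at 31.1 and 15.2, each more than 2-fold lower, and SPARC was at 2.09 and 11.3. The lower and upper Cuffdiff bounds of the largest transcript overlapped for VIM, AXL and ZEB1 and were apart for SPARC. Those of VIM were 0 to 10420 FPKM untreated and 120 to 2147 after DAC. For AXL they were 0 to 522 and 28.3 to 141 FPKM. CD44 (212 and 139 FPKM) and CAV1 (381 and 372 FPKM) were within 2-fold. CDH1 and ESR1 were listed at 0 in untreated cells. GATA3 was at 0.795 FPKM untreated and 1.71 after DAC, a ratio of 2.16 with bounds that overlapped. EPCAM, at 7.90 FPKM untreated, went against its place among the low markers. The part of these shifts in the results that follow was not tested.

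Cholesterol is built from acetyl-CoA through mevalonate, isoprenoid diphosphates and squalene. Fatty acids are built from the same acetyl-CoA, which is released from citrate in the cytosol, by carboxylation, chain growth, elongation and desaturation. Transcription of both sets of genes is driven by SREBP factors, which are held in the endoplasmic reticulum membrane with SCAP and the INSIG proteins when sterols are plentiful, and are cut free and enter the nucleus when sterols are scarce.

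In MDA-MB-231 cells, most synthesis genes had less RNA after DAC. INSIG1, LSS and HSD17B7 of the sterol pathway and SCD of the fatty acid pathway fell more than 2-fold, and TM7SF2, a sterol reductase, rose 5.67-fold. The median DAC/untreated ratio was 0.640 over the 28 genes, 0.688 over the 20 sterol genes and 0.631 over the 8 fatty acid genes, beside 0.938 over all 12525 genes. With 1 library per condition these are differences between libraries, for which no test between conditions could be made. A smaller share of cells holding an RNA and less of that RNA per cell cannot be told apart in such bulk RNA.

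**Figure D1:**
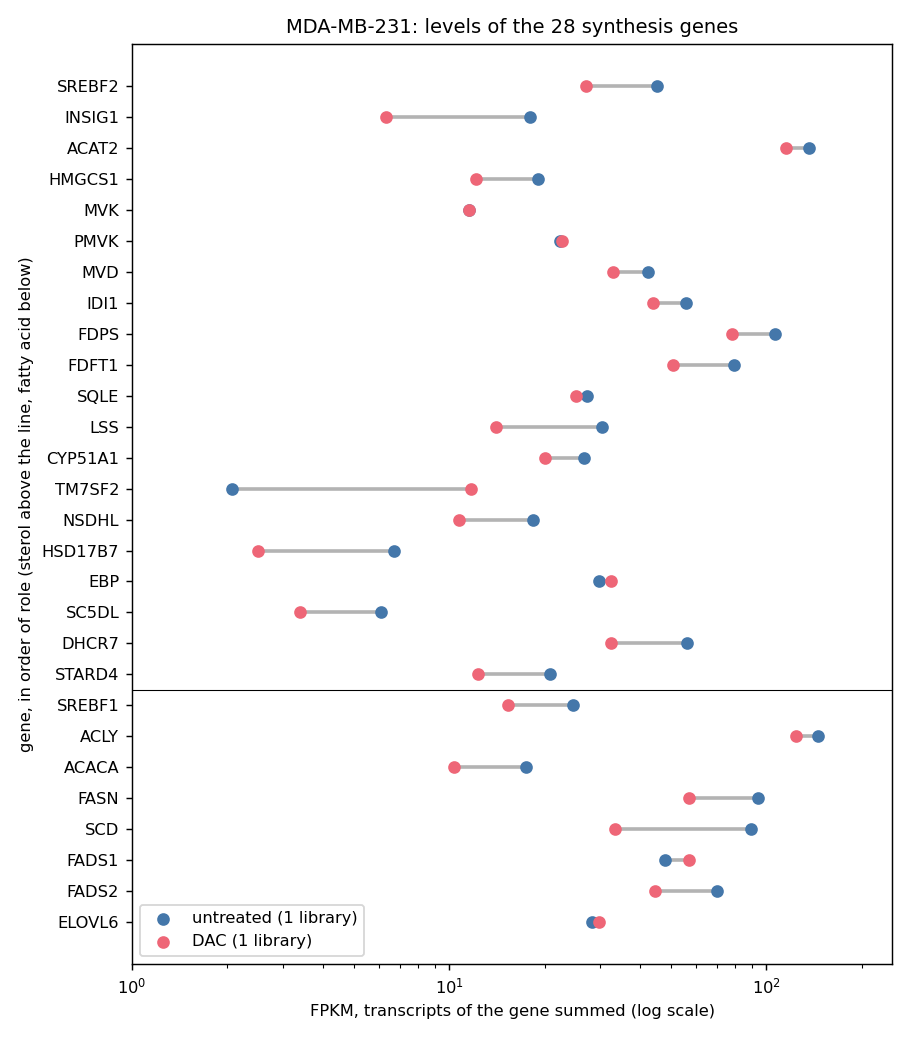
FPKM in the untreated (blue) and DAC (red) library of MDA-MB-231 on a log axis, with all transcripts of a gene summed, 1 library per condition and no error bars. TM7SF2 lies far to the right after DAC (2.07 against 11.7), while INSIG1, LSS, HSD17B7 and SCD show the longest shifts to the left.

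A gene was called lower or higher where its ratio of summed FPKM passed 2-fold. By that rule 4 of the 28 genes were lower, beside 4.82% of all genes, and 1 was higher, beside 10.8%. At a 1.5-fold threshold 15 of the 28 were lower, beside 15.5% of all genes, and 1 was higher, beside 17.0%. All 28 genes also reached 5 FPKM in one of the libraries. Of the 9398 genes at that level, 4.82% were more than 2-fold lower and 16.6% more than 1.5-fold lower. Rises were less common there than among all genes, with 4.95% more than 2-fold higher and 904 genes more than 1.5-fold higher. A ratio below 1 was found for 22 of the 28 genes, beside 56.9% of all genes and 63.8% of those at 5 FPKM or more.

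SREBF2, which encodes the SREBP that acts mainly on sterol genes, was at 45.3 FPKM in untreated cells and 26.9 FPKM after DAC, a ratio of 0.594. INSIG1 encodes the membrane anchor that retains SREBP and is itself an SREBP target. It fell from 17.98 to 6.32 FPKM, a ratio of 0.351 and a log2 change of -1.38 with 1 FPKM added to each value. Only 1.73% of all genes had a lower ratio than INSIG1, the lowest of the 28. SREBF1, whose product acts mainly on fatty acid genes, was at 24.6 FPKM untreated and 15.4 FPKM after DAC, a ratio of 0.623. Both SREBP genes and INSIG1 were thus lower in the DAC library, and of them only INSIG1 passed 2-fold.

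SREBP binds sterol regulatory elements near the start of its targets, next to sites of NF-Y (the CCAAT box) and SP1 (the GC box). RefSeq promoter windows on GRCh38.p14, from 250 bases before to 50 bases after a start, were searched on both strands and found for 24 of the 28 genes, with 33 windows in all, since some genes have several starts. ACAT2, FASN, FDFT1 and SQLE had no entry. The element's core TCACNCCAC was found in 1.13% of all 35116 windows and, among the 24 genes, in SREBF2 alone. The shorter form CACNCCAC, which every core match contains, was found in 5.87% of all windows and in 7 of the 33. These 7 windows belong to SREBF2, INSIG1, IDI1, SC5DL, ACACA and SCD. IDI1 and ACACA also have windows of other starts, which held no match. The matched stretches of the 6 genes are shown because the motif is the one by which SREBP-driven genes are known. The TM7SF2 stretch is shown because that gene moved the other way and had no such match. Each stretch is 30 bases, read along its gene's strand, with the matched letters in capitals. GTGGNGTG is the shorter form on the opposite strand and ATTGG the CCAAT box on the opposite strand.
SREBF2: tgacgcgccaTCACCCCACgcaccgcttcg
INSIG1: cgggccggcgGTGGCGTGtgcgcacgtcat
IDI1: gccgggcgatGTGGCGTGgactggcgctgg
SC5DL: ttgcagagcaGTGGCGTGcggagcggcggc
ACACA: ttccctagtaGTGGCGTGtttcctttctac
SCD: cagaggccggGTGGTGTGgtgtcggtgtcg
TM7SF2: ccgagcgccgATTGGctggtgtgctgggcc

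By exact match to hg19, the SREBF2 stretch lies at chr22:42228966-42228995 on the plus strand, with its match at -133 to -125 relative to the start. The INSIG1 stretch lies at chr7:155089370-155089399 (plus strand), the SCD stretch at chr10:102106866-102106895 (plus) and the SC5DL stretch at chr11:121163483-121163512 (plus). The SC5DL match falls after the start of the window from which it was read. SC5DL has another start whose window holds the same stretch, and the position from that start is not given. The IDI1 stretch lies at chr10:1094922-1094951 (minus strand) and the ACACA stretch at chr17:35656897-35656926 (minus). The ACACA stretch falls inside the gene, which spans chr17:35441927-35766927. The TM7SF2 stretch lies at chr11:64879260-64879289 (plus), with the CCAAT box at -74 to -70. Of the 4 genes that fell more than 2-fold, INSIG1 and SCD held the shorter form in this window, and LSS and HSD17B7 did not. A match is a description of letters and no evidence of binding in these cells.

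The other 2 motifs are common. CCAAT was found in 34.6% of all windows and 23 of the 33, and GGGCGG in 45.0% of all and 29 of the 33. The CpG observed/expected ratio, which is high in CpG islands, had a median of 0.579 over all windows and 0.815 over those of the 24 genes (range 0.327 to 1.10). TM7SF2 was at 0.702, below INSIG1 (1.04), HSD17B7 (0.924), LSS (0.776) and SCD (0.759), and 58.1% of all windows were lower. Among the 33 windows, lower values than that of TM7SF2 were found for STARD4 (0.692), FADS2 (0.593 and 0.438) and single windows of DHCR7 (0.502) and ACACA (0.327). None of these genes was higher after DAC. Methylation at these starts was not analysed here.

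The steps from acetyl-CoA to farnesyl diphosphate were the least shifted of the sterol pathway, with a median ratio of 0.783 over 7 genes, a range of 0.637 to 1.02 and no gene past 2-fold. ACAT2, the cytosolic thiolase that joins acetyl-CoA units, was at 137 FPKM untreated and 116 after DAC, a ratio of 0.846. HMGCS1, which adds the third acetyl unit, was at 19.0 and 12.1 FPKM, a ratio of 0.637. It was the lowest ratio of the 7 genes.

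The kinases MVK, which phosphorylates mevalonate, and PMVK, which phosphorylates the product of MVK, had nearly the same level in both libraries. MVK was at 11.6 FPKM in each, with a ratio of 1.001, and PMVK at 22.4 and 22.8 FPKM, with a ratio of 1.02. They are the only 2 of the 28 genes whose 95% exact counting interval of the ratio held 1, at 0.912 to 1.10 for MVK and 0.932 to 1.11 for PMVK. These intervals come from the 121 to 33241 inferred fragments per gene and library and cover counting error only. MVD, the decarboxylase of the next step, was at 42.4 and 32.9 FPKM (0.775), and IDI1, the isomerase after it, at 56.0 and 43.8 FPKM (0.783). FDPS, which makes farnesyl diphosphate, was at 106 and 78.2 FPKM (0.736). MVD, IDI1 and FDPS sat close together, each with a lower level after DAC and within 1.5-fold.

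The 10 genes from squalene to cholesterol had a median ratio of 0.613, with 2 lower and 1 higher past 2-fold and 8 of the 10 below 1. FDFT1, which makes squalene, was at 79.2 FPKM untreated and 50.7 after DAC, a ratio of 0.641. SQLE, the epoxidase that follows, was at 27.1 and 25.1 FPKM, a ratio of 0.923, close to the median of all genes. LSS closes the ring to lanosterol. It fell from 30.3 to 14.1 FPKM, a ratio of 0.465, and 3.75% of all genes had a lower ratio. The LSS call depended on the library scaling, since its ratio was 0.510 once divided by the median ratio of all genes and 0.571 with both libraries set to the same FPKM sum.

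CYP51A1, the lanosterol demethylase, was at 26.6 FPKM untreated and 20.1 after DAC, a ratio of 0.754. TM7SF2 encodes a reductase that acts on the product of CYP51A1. It rose from 2.07 to 11.7 FPKM, a ratio of 5.67 with a counting interval of 4.67 to 6.93 from 121 and 682 fragments and a log2 change of 2.05. It was the lowest of the 28 genes in untreated cells and lay above SC5DL, HSD17B7, INSIG1, NSDHL, ACACA and MVK after DAC, and 95.6% of all genes had a lower ratio. LBR, the lamin B receptor, carries the same reductase activity, and it was at 70.7 and 49.0 FPKM, a ratio of 0.693. LBR was looked up after the TM7SF2 values were seen.

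TM7SF2 lies at chr11:64879317-64883856 on the plus strand of hg19. Within 50 kb of it 7 other genes were at 1 FPKM or more, none of them past 2-fold, with ratios of 0.791 to 1.23. VPS51, which ends next to TM7SF2 on the same strand and shares 18 exonic bases with it, was at 37.5 FPKM untreated and 29.6 after DAC. ZNHIT2, on the other side, was at 13.4 and 15.1 FPKM. These neighbours were also chosen after the TM7SF2 values were seen.

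NSDHL, which removes the carboxylated methyl groups, was at 18.4 FPKM untreated and 10.8 after DAC, a ratio of 0.585. HSD17B7, the ketoreductase of the same complex, fell from 6.73 to 2.50 FPKM, a ratio of 0.371 with a counting interval of 0.303 to 0.452 from 374 and 138 fragments. Only 2.02% of all genes had a lower ratio. HSD17B7 has a near copy, HSD17B7P2, at 0.529 and 0.276 FPKM, so reads may be split between them and its value is uncertain.

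EBP, the sterol isomerase, was at 29.8 and 32.4 FPKM, a ratio of 1.09. SC5DL (the desaturase now named SC5D) was at 6.09 and 3.39 FPKM, a ratio of 0.556, and DHCR7, the last reductase, at 56.1 and 32.4 FPKM, a ratio of 0.579. STARD4, which carries cholesterol between membranes, was at 20.7 and 12.3 FPKM, a ratio of 0.594. Except for EBP, these late genes were between 1.5-fold and 2-fold lower. Summed over the 20 sterol genes, FPKM was 761 untreated and 566 after DAC, and leaving out TM7SF2 moved the median ratio from 0.688 to 0.641.

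In the fatty acid pathway 1 of the 8 genes was lower past 2-fold, none was higher, and 5 were lower past 1.5-fold. ACLY, which splits citrate into acetyl-CoA, was the most abundant of the 28 genes at 146 FPKM untreated and 124 after DAC, a ratio of 0.851. ACACA, the carboxylase that makes malonyl-CoA, was at 17.5 and 10.4 FPKM (0.595), and FASN, the synthase that builds palmitate, at 94.2 and 57.0 FPKM (0.605). ACACA and FASN had nearly the same ratio.

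SCD, the desaturase that makes oleate from stearate, fell from 89.6 to 33.3 FPKM, a ratio of 0.372 with a counting interval of 0.362 to 0.382 and a log2 change of -1.40. Its 20146 and 7437 fragments made it the best counted of the genes past 2-fold, and 2.04% of all genes had a lower ratio. FADS2, the desaturase that opens the polyunsaturated route, was at 70.0 and 44.7 FPKM, a ratio of 0.639. FADS1, which acts later in that route and is encoded beside FADS2, was at 48.0 and 57.2 FPKM, a ratio of 1.19. ELOVL6, which lengthens palmitate to stearate, was at 28.1 and 29.7 FPKM, a ratio of 1.05. The desaturases thus went from the fall of SCD to a FADS1 level slightly higher after DAC, and FPKM summed over the 8 genes was 518 untreated and 372 after DAC.

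Cuffdiff gave each transcript a lower and an upper bound, which allow for more than counting error. The bounds of the largest transcript overlapped between the libraries for all 28 genes, beside 1.43% of all genes whose bounds were apart. TM7SF2 came near to separation, at 2.07 FPKM (0 to 4.82) untreated and 11.7 FPKM (4.07 to 19.4) after DAC. SCD was at 89.6 FPKM (43.7 to 135.5) and 33.3 FPKM (18.2 to 48.4), and INSIG1 transcript NM_005542 at 16.2 FPKM (7.96 to 24.4) and 5.55 FPKM (1.81 to 9.29). LSS transcript NM_002340 was at 17.6 FPKM (7.28 to 27.99) and 7.15 FPKM (2.45 to 11.9), and HSD17B7 at 6.73 FPKM (1.26 to 12.2) and 2.50 FPKM (0 to 5.93). In all 5 genes the central values lay apart and the ranges met. On hg19 the 4 genes that fell are protein-coding genes at chr7:155089486-155101945 (INSIG1, plus strand), chr21:47608055-47648738 (LSS, minus), chr1:162760492-162782613 (HSD17B7, plus) and chr10:102106990-102124583 (SCD, plus).

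**Figure D2:**
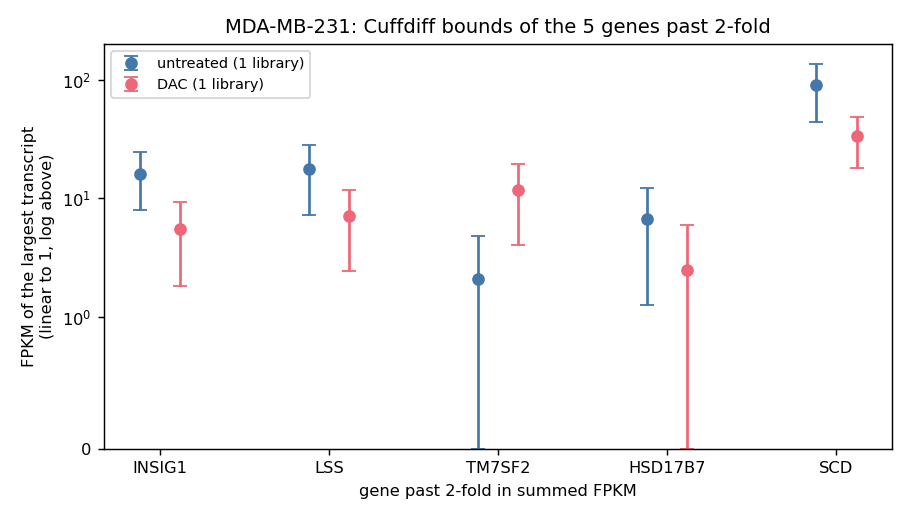
FPKM of the largest transcript of the 5 genes past 2-fold in MDA-MB-231, with points for the untreated (blue) and DAC (red) library and bars for the Cuffdiff lower and upper bounds, on an axis that is linear to 1 and logarithmic above. The bars of the pair of libraries overlap in each gene, least in TM7SF2, INSIG1 and SCD.

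Where a gene had several transcripts, some did not move alike. Of the 28 genes, 15 had 1 listed transcript. SREBF1 NM_004176 was at 21.3 FPKM untreated and 15.2 after DAC, whereas NM_001005291 was at 3.33 and 0.160 FPKM and went from 13.5% to 1.04% of the gene. CYP51A1 NM_000786 was at 21.3 and 17.98 FPKM and NM_001146152 at 5.29 and 2.09 FPKM. In LSS the main transcript had the lowest ratio (0.406), and NM_001001438 was at 1.503 and 1.10 FPKM (0.733). ACLY NM_001096 was at 123 and 98.1 FPKM and NM_198830 at 22.8 and 25.8 FPKM. The split of reads between overlapping transcripts is an estimate, so the gene sums are the firmer values.

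Some of these values may include reads of an overlapping gene. Strand use in counting was not given in the sources used here, so reads of opposite-strand partners cannot be told apart. On the opposite strand, HMGCS1 shares 2497 exonic bases with the long noncoding gene ENSG00000261604, SREBF2 731 with SREBF2-AS1, FDPS 693 with RUSC1-AS1, IDI1 643 with IDI2-AS1, SREBF1 556 with RAI1, FADS1 490 with FADS2, ACAT2 454 with TCP1, LSS 448 with ENSG00000228404 and MVK 225 with MMAB. On the same strand, where strand use would not part the reads, CYP51A1 shares 2844 bases with ENSG00000285772 and 2827 with ENSG00000289027, and EBP shares 644 with ENSG00000286268. The values of these genes are uncertain to that extent.

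The FPKM sums of the libraries differ, so the ratios were also computed on other scales. Divided by the median ratio of all genes, 21 of the 28 genes were below 1, beside 46.5% of all genes, SQLE being the one that changed side. With both libraries at the same FPKM sum, 19 were below 1, beside 32.6% of all genes, and ACAT2 and ACLY changed side as well. The median ratio of the 28 genes was then 0.701 and 0.785. INSIG1, HSD17B7 and SCD stayed more than 2-fold lower and TM7SF2 more than 2-fold higher on each of these scales.

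**Figure D3:**
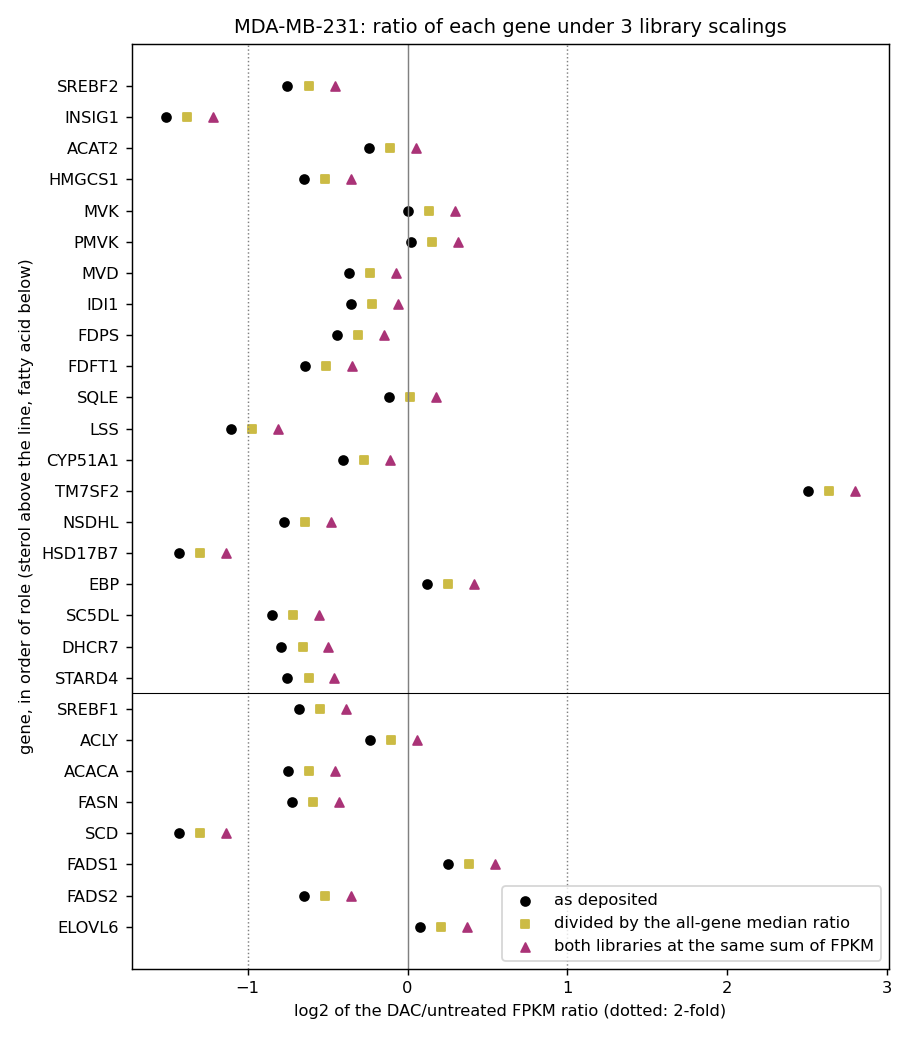
Log2 of the DAC/untreated FPKM ratio of each gene in MDA-MB-231 as deposited (circles), divided by the median ratio of all genes (squares) and with both libraries at the same FPKM sum (triangles), with dotted lines at 2-fold. LSS crosses the 2-fold line between scalings, and SQLE, ACAT2 and ACLY cross 0.

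In HMLER cells only TM7SF2 could be read. The HMLER table holds 2009 transcripts of 1854 symbols, all of them more than 2-fold higher after DAC. TM7SF2 was listed at 6.45 FPKM untreated and 14.03 FPKM after DAC, a ratio of 2.18, and 9.56% of listed transcripts had a lower ratio (median 3.64). Thus 1 of the 28 genes was listed, beside 10.9% of the 12525 genes kept in MDA-MB-231. TM7SF2 was also the 1 gene of the 28 higher past 2-fold in both lines, beside 3.66% of those genes. The other 27 were not analysed in HMLER, since the table could show neither a fall nor a value within 2-fold. The markers used here were those of MDA-MB-231. Of these, CD44 (1.23 FPKM untreated and 8.26 after DAC) and EPCAM (0.4495 and 2.17 FPKM) were each listed in HMLER through 1 transcript. Any other transcript of CD44 or EPCAM would be missing unless it rose more than 2-fold, so these values are not gene levels. No list of HMLER markers was used, so the label of that line was not checked.

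Genes around the synthesis pathways were counted as lists, to be read beside the 4.82% of all genes that were more than 2-fold lower, the 10.8% that were more than 2-fold higher and the all-gene median ratio of 0.938. Of 12 genes that process or retain SREBP, 1 was lower past 2-fold and none higher, with a median ratio of 0.805. The one was ERLIN1, which takes part in sterol-regulated degradation in the endoplasmic reticulum membrane, at 49.2 FPKM untreated and 21.6 after DAC. Of 14 genes of the isoprenoid branches that leave the pathway at farnesyl diphosphate, 3 were lower and none higher (median 0.776). They were PDSS2, which makes the ubiquinone side chain, at 9.52 and 2.29 FPKM, RABGGTB, a subunit of the Rab prenyltransferase, at 80.1 and 34.2 FPKM, and FNTB, a farnesyltransferase subunit, at 1.59 and 0.736 FPKM. The Cuffdiff bounds of PDSS2 were apart, at 4.46 to 14.6 and 0.324 to 4.26 FPKM. Those of ERLIN1, RABGGTB and FNTB overlapped.

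Of 20 genes of fatty acid activation, elongation and desaturation, 19 were at 1 FPKM or more, and 1 was lower and 1 higher past 2-fold (median 0.756). OXSM, of mitochondrial fatty acid synthesis, was at 10.3 and 4.34 FPKM, and ELOVL7, an elongase, at 1.38 and 7.94 FPKM with bounds that were apart (0 to 2.78 and 3.65 to 12.2). The bounds of OXSM overlapped. ELOVL7 was thus higher and ELOVL6 within 2-fold.

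Lists for the use of sterols and lipids had medians nearer to or above that of all genes. The 12 measured genes of sterol transport, esterification and LXR targets had a median ratio of 1.13, with none lower and 2 higher past 2-fold. These were CYP27A1, which oxidises the cholesterol side chain, at 0.472 and 1.55 FPKM, and NR1H3, which encodes LXR alpha, at 3.93 and 8.75 FPKM. The 15 measured genes of triglyceride and phospholipid synthesis had a median of 0.905 with 2 lower, AGPAT3 (an acyltransferase) at 13.4 and 3.04 FPKM, with bounds of the largest transcript that were apart (7.23 to 19.4 and 1.17 to 4.90), and LPIN1 (a phosphatidate phosphatase) at 24.3 and 9.26 FPKM. AGPAT9, within 2-fold at 13.2 and 7.85 FPKM, was the other gene of the list with bounds apart (5.23 to 18.3 and 0 to 4.94). The 14 genes of fatty acid oxidation had a median of 0.997. HADH was lower at 18.5 and 9.18 FPKM, and CPT1C was higher at 0.0182 and 1.99 FPKM. Bounds overlapped for CYP27A1, NR1H3, LPIN1, HADH and CPT1C. CYP27A1 and CPT1C reached 1 FPKM in the DAC library alone.

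**Figure D4:**
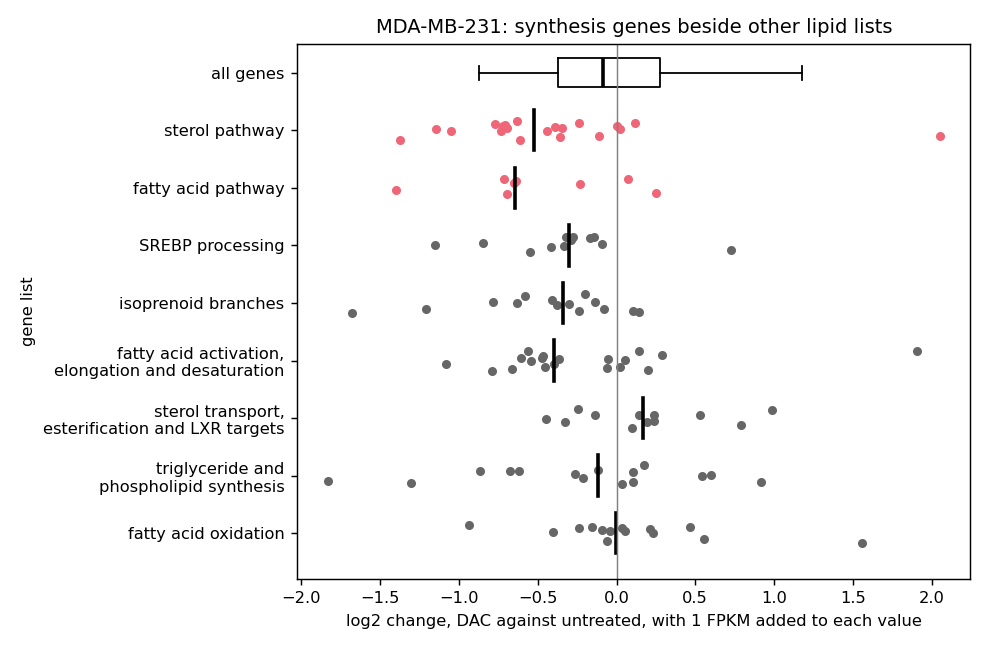
Log2 change between the DAC and the untreated MDA-MB-231 library, with 1 FPKM added to each value, for the 28 synthesis genes (red points) and 6 other lipid lists (grey points), with black lines at list medians and a box for all 12525 genes (box at the quartiles, whiskers at percentiles 5 and 95). The medians are -0.52 for the sterol and -0.64 for the fatty acid pathway, beside -0.08 for all genes.

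A few genes of these lists were in the HMLER table and are named after their values were seen. Each was listed through 1 transcript, so its HMLER values are of that transcript alone, whereas the MDA-MB-231 values are gene sums. PLIN2, which coats lipid droplets, was at 1.93 FPKM untreated and 43.3 after DAC in HMLER, a ratio of 22.5, and at 25.8 and 38.0 FPKM in MDA-MB-231, a ratio of 1.47. CPT1C was at 0.0883 and 1.83 FPKM in HMLER. UBXN8, ZMPSTE24, SCD5 and ELOVL4 were listed with ratios of 2.15, 2.22, 2.58 and 2.07.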

How the data were processed

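RNA-seq reads of MDA-MB-231 and HMLER cells were aligned to hg19 with TopHat2 and turned by Cuffdiff into FPKM per RefSeq transcript by the authors, per the submitters' processing notes. Versions and library scaling are not given in the sources used here. The deposited FPKM were used. The authors' fold change, p-value and q-value columns were not used. FPKM of all transcripts of a symbol were summed. Genes that reached 1 FPKM in either MDA-MB-231 library were kept, and a ratio past 2-fold without pseudocount was called. Log2 changes had a pseudocount of 1 FPKM, which understates changes of low genes. What 1 fragment is worth was found in transcripts of 2000 bases or more, where 944 and 1044 low values were all within 0.1 of a whole number (20% by chance), and counting intervals are 95% Clopper-Pearson. There were no replicates in the tables, so no test was run. The calling step was tested on simulated data, and the fragment step was not. All 28 members were named, and of other lists the genes past 2-fold, at most 4 a list. Members, lists and motifs were chosen with earlier results of these data known. Positions were matched to GRCh37, the assembly of hg19. Alternatives were other filters, pseudocounts, thresholds, scalings, the largest transcript and transcripts with status OK. Tables were handled with pandas 2.3.3 and numpy 2.4.6 in Python 3.11.15, intervals computed with scipy 1.17.1, sequences read with pysam 0.24.0, and plots drawn with matplotlib 3.10.9.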

Additional observations from a re-analysis of the deposited data

How the results depend on the processing

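Under the alternatives 101 recomputed values kept their direction and, for single genes, their side of the threshold, or, for counts, stayed within 1.5 times the value reported, and 5 counts and 3 ratios did not. Part of these 101 agreements was fixed in advance. Single-gene ratios were computed without a pseudocount, so the filter and pseudocount settings could not change them. All 50 transcripts of the 28 genes had status OK, and the reported medians already had 1 FPKM added. At 1.5-fold, 10 sterol and 5 fatty acid genes were lower in MDA-MB-231. Where the Cuffdiff bounds had to be apart, 0 sterol and 0 fatty acid genes were lower and 0 sterol genes were higher. LSS lost its call at 0.510 (median ratio) and at 0.571 and 0.551 (both libraries at the same FPKM sum, the second from transcripts of 300 bases or more), the last pair chosen after seeing the data, so the sterol genes more than 2-fold lower were 2 in place of 3 under each of these scalings. Among all genes past 2-fold, 69.1% were higher as deposited, 78.0% after division by the median ratio, 85.7% and 83.3% at the same sum, and 50.7% at 5 FPKM or more. No paired analysis was possible because each condition had 1 value in either line, and for the same reason no replicate could be left out. The values are limited by 1 library per condition in MDA-MB-231 and by a table of rises alone in HMLER.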
